A study of Mus musculus with 6 samples.

Results

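The neurofilament genes are the 5 genes Nefl, Nefm, Nefh, Ina and Prph, found in the deposited table by gene identifier, out of 57010 genes. Rows on the opposite strand that share exonic bases with them were added from the exon positions in the table, which brought in 1 further gene, Nt5c2. RNA was sequenced from 6 wild-type mouse samples, 3 of each of 2 kinds. The first kind, called ESC here, is embryonic stem cells, pluripotent cells kept under standard culture conditions, of the line named WT ESC. The other kind, called neurons, is primary cortical neurons from wild-type cortices of embryonic day 16.5, kept for 7 days in vitro. No group was perturbed, and both served as reference states in a study of Rai1. The library names of neuron replicates 2 and 3 hold the unexplained word empty. A batch label equals the group, so batch and group cannot be told apart. The labels do not say whether replicates came from separate cultures or animals, so p-values measure only the spread between these samples, which may be technical.

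Neurofilaments are the intermediate filaments of neurons and fill the axon, whose calibre they set. In the central nervous system they are built from the light chain (Nefl), the medium chain (Nefm), the heavy chain (Nefh) and alpha-internexin (Ina). Peripherin (Prph) takes part mainly in neurons with axons outside the brain and spinal cord. The light chain forms the core, and the long phosphorylated tails of the medium and heavy chains project from it. Their expression is known to build up as neurons extend and mature their axons.

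Of the neurofilament genes, Nefm was assigned many more counts in neurons than in ESC, and it was the 1 of the 5 that passed the test, an edgeR adjusted p under 0.05, with library totals scaled by the trimmed mean (TMM). It rose 8.22-fold, by 3.04 on the log2 scale. Nefh and Ina did not pass, though both did with scaling to total counts, and their levels overlapped between the groups. Nefl had a few counts in each library and Prph next to none. These are the rows of the table: the strand that was counted is not given in the sources used here, so the row of Nefm may hold reads of Nefl. The row for Nt5c2, opposite Ina, rose as well, by 2.15 on the log2 scale. Nefm lies opposite the first exon of Nefl. Nt5c2 is in the set only because it lies opposite the first exon of Ina, so its position is no finding. Of 4674 tested genes with an opposite-strand exonic overlap, 41.2% were higher in neurons.

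Positions in the table are on GRCm39, the build named in the submitters' processing notes. Nefl (ENSMUSG00000022055.8) lies on chromosome 14 from 68321312 to 68326544 on the plus strand. Nefm (ENSMUSG00000022054.12) lies from 68320039 to 68362295 on the minus strand and spans all of Nefl. Its exon from 68320039 to 68322419 shares 1108 bases, from 68321312 to 68322419, with the first exon of Nefl. These are 32.8% of the exonic bases of Nefl and 19.2% of those of Nefm. Ina (ENSMUSG00000034336.4) lies on chromosome 19 from 47003137 to 47013766 on the plus strand. Its first 456 exonic bases, up to 47003592, are also an exon of Nt5c2 (ENSMUSG00000025041.18) on the minus strand, a gene for a cytosolic nucleotidase. Those bases are 14.1% of the exonic bases of Ina and 4.13% of those of Nt5c2. Nefh (ENSMUSG00000020396.9) lies on chromosome 11 from 4888754 to 4898064 on the minus strand. Prph (ENSMUSG00000023484.15) lies on chromosome 15 from 98953055 to 98956859 on the plus strand. Neither shares an exonic base with a gene on the other strand.

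**Figure D1:**
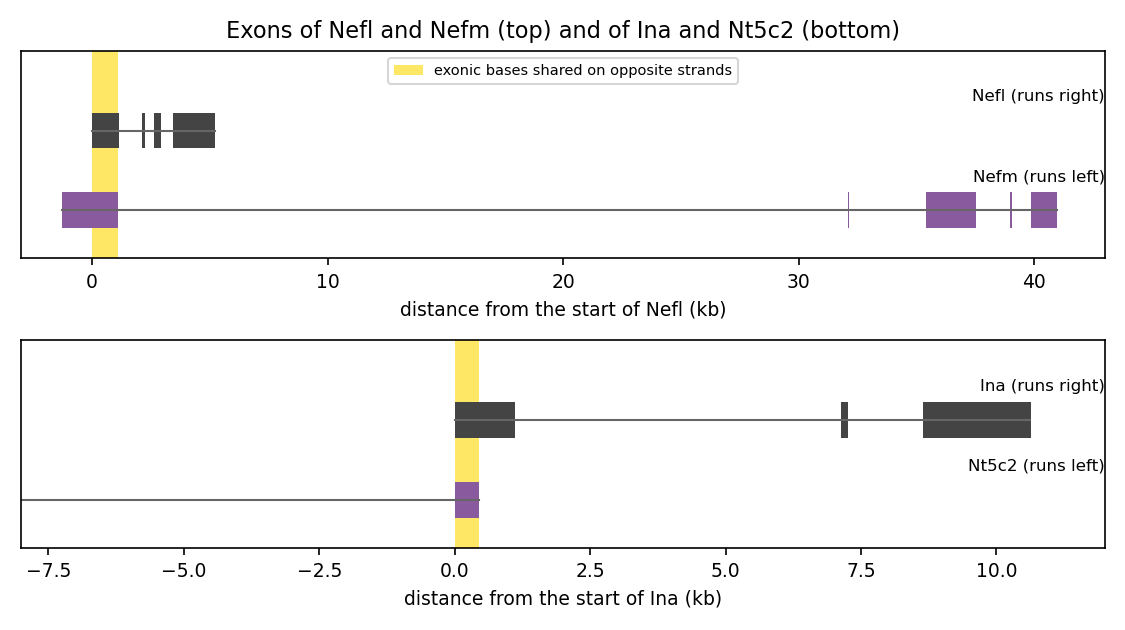
Exons (boxes) of Nefl and Nefm in the top panel and of Ina and Nt5c2 in the bottom panel, drawn to scale as distance in kb from the start of Nefl and of Ina; the rest of Nt5c2 lies to the left of the panel. The yellow bands mark the 1108 and 456 exonic bases shared on opposite strands, which fall on the first exon of Nefl and of Ina.

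The overlap with Nefl comes from 1 of the 2 Nefm transcripts in GENCODE release M21 (GRCm38), Nefm-202. That transcript ends in an exon far downstream of the others, whereas Nefm-201, with the longer coding part of 2547 bases, does not reach Nefl. Of the 1108 bases shared by Nefl-201 and Nefm-202, 1008 are coding in Nefl and 147 in Nefm-202. The stretch that codes on both strands is shown because it is where the coding parts of Nefl-201 and Nefm-202 use the same DNA. The coding part of Nefm-202 has 1413 bases, and the stretch is not part of the longer one of Nefm-201. It lies at chr14:68084824-68084970 on GRCm38 and is given in the direction of each gene, with capitals for the stop codon of Nefm-202 and for the bases opposite it.
Nefl-201, plus strand: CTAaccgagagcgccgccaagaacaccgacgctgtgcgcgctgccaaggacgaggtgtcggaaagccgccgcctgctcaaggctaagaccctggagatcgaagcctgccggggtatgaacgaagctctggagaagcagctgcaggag
Nefm-202, minus strand: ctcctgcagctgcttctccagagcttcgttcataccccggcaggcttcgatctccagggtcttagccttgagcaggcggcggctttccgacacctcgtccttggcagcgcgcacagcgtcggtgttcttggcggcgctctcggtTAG
In both genes the stretch starts at the first base of a codon. The 456 bases shared by Ina-201 and Nt5c2-203 were coding at 399 positions in Ina and 59 in Nt5c2-203, with 2 bases coding in both.

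The neurofilament genes belong to 1 family and resemble each other in their coding parts. How the counting treated reads that match several places is not given in the sources used here.

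Total counts were 1368303 to 1775055 in the ESC libraries and 513425 to 624792 in the neuron libraries. Levels are given as CPM, the count over the library total after TMM scaling, and 3 counts correspond to 2.26 to 2.90 CPM in ESC and 3.92 to 4.81 CPM in neuron libraries. These floors, like the intervals given here, cover counting error only. In bulk samples, fewer cells of a type and less RNA per cell cannot be told apart. The 16.8% of genes whose exons overlap an opposite-strand exon held 90.9% to 91.9% of the counts in ESC and 88.5% to 89.4% in neuron libraries. Neither the strandedness of the libraries nor the strand setting of counting is given. Had stranded libraries been counted on the other strand, a row would hold the reads of the gene opposite, and a gene with none opposite would be near 0 whatever its expression. That was not tested. In ESC the row of the pluripotency factor gene Pou5f1 had 51, 29 and 43 counts, and that of Gm19553 opposite it 18559, 13967 and 15649. In neurons the row of the progenitor factor gene Hes5 had 5, 3 and 5 counts, and that of Gm20421 opposite it 256, 303 and 252. Both pairs were chosen after their values were seen. All values are therefore counts as assigned in the table, and reads from a gene and from its opposite-strand partner cannot be told apart where they overlap.

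Cell type markers were read from lists chosen with earlier results of these data known. Their calls stand beside 47.0% of all 7150 genes tested that were higher in neurons and 38.6% that were lower. All 5 tested of the 10 stem cell markers were lower in neurons, where 6 of the 10 were at 0, and their summed level was 171 to 250 CPM in ESC and 3.92 to 4.81 CPM in neurons. Of 14 cortical neuron markers 4 were tested. The 14 summed to 55.1 to 58.0 CPM in ESC and 157 to 174 CPM in neurons. Of the 4, 3 were higher, among them the dendritic protein gene Map2 and the factor gene Neurod2, and the vesicular glutamate transporter gene Slc17a7 was lower (64, 49 and 54 counts in ESC against 2, 1 and 0). With no filter on low counts, 10 of the 14 were higher in neurons and 1 was lower, where 40.8% of 28820 genes differed in either direction. In ESC 7 of the 14 were at 0 in every library. Not all untested markers rose. The neuronal tubulin gene Tubb3 had 10, 4 and 8 counts in ESC against 4, 2 and 1 in neurons. The synaptotagmin gene Syt1 had at most 1 count in any library. The summed level of 8 astrocyte markers was 5.80 to 10.9 CPM in ESC and 48.1 to 76.0 CPM in neurons, with Slc1a2 the 1 tested gene and higher. With no filter 6 of the 8 were higher, beside 40.8% of genes differing. Aldh1l1 was at 0 in every neuron library, and Aldoc had 3, 0 and 8 counts in ESC against 3, 1 and 1. For 8 oligodendrocyte lineage markers the summed level was 42.1 to 60.9 against 267 to 294 CPM, mostly Mog (183, 154 and 157 counts in neurons). Mog and Olig1 were higher, Mbp was lower and Mag was at 0 in every library. For 6 progenitor markers the summed level was 12.7 to 16.4 against 77.5 to 133 CPM, mostly Pax6 (61, 41 and 64 counts in neurons), which was higher. The untested Nes (6, 5 and 4 counts against 1, 0 and 2) and Eomes (5, 3 and 6 against 1, 1 and 1) had lower levels in neurons. With no filter 3 of the 6 were higher and 0 lower, beside 40.8% of genes differing. For 7 microglial markers the summed level was 201 to 266 against 130 to 145 CPM, mostly Csf1r (266, 258 and 204 counts against 97, 89 and 75). Csf1r and Cx3cr1 were lower, and Tmem119, C1qa and C1qb were at 0 in every library. Csf1r lost its call with total counts (log2 fold change −0.0057, edgeR adjusted p = 0.973), and Cx3cr1 kept its call in 5 of 11 alternatives. For 8 endothelial and mesenchymal markers the summed level was 5.27 to 13.6 against 1.60 to 5.22 CPM, with none tested. The 5 tested stem cell markers and the 4 tested cortical ones passed the count filter only through the group where they are high. The same holds for Slc1a2, Olig1, Mbp and Pax6. The filter thus largely set the direction of these calls, which is no support for a cell type. The part of any other cell type in the neurofilament counts was not tested.

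Nefl encodes the light chain, the core subunit. It was assigned 9, 9 and 13 counts in ESC replicates 1 to 3 and 4, 6 and 4 counts in neuron replicates 1 to 3. Its level was 9.08 ± 2.52 CPM in ESC and 6.86 ± 1.90 CPM in neurons (SD, n = 3). The groups overlapped, and the gene stayed under the count filter, so it had no value in the test. With no filter on low counts its log2 fold change was −0.55 and it did not pass (edgeR adjusted p = 0.388).

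Nefm encodes the medium chain, whose tail takes part in spacing the filaments. Its row held 164, 168 and 139 counts for ESC replicates 1 to 3 and 771, 837 and 699 for the neuron replicates, although the neuron libraries held fewer counts in all. The lowest neuron library, at 1006 CPM, was far above the highest ESC library, at 163 CPM, and the groups did not overlap. The mean level was 137 ± 21.9 CPM in ESC and 1125 ± 121 CPM in neurons (SD, n = 3). The difference on the log2 scale was 3.04, with an SE of 0.13 (edgeR adjusted p = 4.94e-23), and 3 of 3 neuron libraries lay higher. In neurons Nefm ranked 54 among all genes by mean CPM, and in ESC 1374. With DESeq2's Wald test on the same genes the log2 fold change was 3.03.

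Of the 5 neurofilament genes, 3 passed the count filter, and 1 of these, Nefm, passed the test. Among the 7150 genes tested, 47.0% were higher in neurons, 38.6% were lower and 85.6% differed in either direction, so 1 of 3 is not above the background. With no filter, where 1 of the 5 passed, 40.8% of 28820 genes differed. Nefm was also the 1 member whose CPM ranges did not overlap, which 47.6% of tested genes showed with neurons higher. The median log2 fold change of the 3 tested members was 0.34, against 0.37 for all genes tested.

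Nefl and Nefm together took 173, 177 and 152 counts in the 3 stem cell samples and 775, 843 and 703 in the 3 neuron samples. Nefl took 5.20% of these in ESC replicate 1 (Wilson 95% interval 2.76% to 9.59%), 5.08% in replicate 2 (2.70% to 9.38%) and 8.55% in replicate 3 (5.07% to 14.1%). In the neuron libraries it took 0.516% (0.201% to 1.32%), 0.712% (0.327% to 1.54%) and 0.569% (0.221% to 1.45%). The row of Nefl thus took a lower share in every neuron library, at 0.599% ± 0.101, than in any ESC library, at 6.28% ± 1.97 (SD, n = 3). An exact two-sided permutation test gave p = 0.1, the smallest value possible with 3 against 3 samples. The row of Nefm took the other 93.7% in ESC and 99.4% in neurons, and with the counted strand unknown neither share can be read as the share of that gene's RNA. Counted as 1 unit, the pair rose from 146 ± 21.9 to 1131 ± 122 CPM, a log2 difference of 2.95 with an SE of 0.13 (edgeR adjusted p = 8.51e-23). The table gives 1 count per gene, so counts on the shared 1108 bases cannot be separated from those on the other exons of Nefm.

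**Figure D2:**
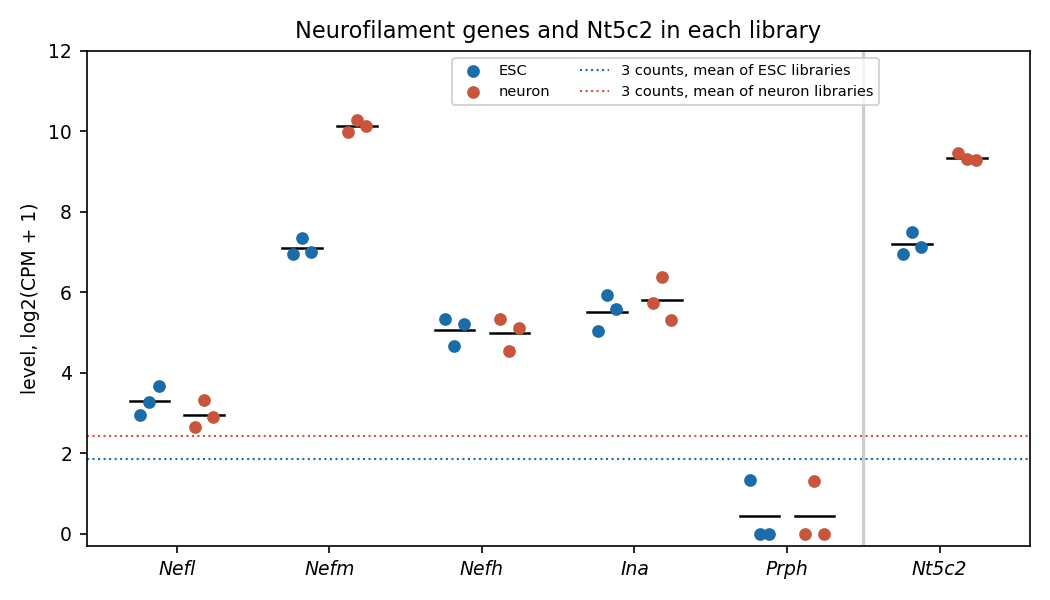
Level of each neurofilament gene and of Nt5c2 in each library, as log2(CPM + 1); points are the 3 ESC (blue) and 3 neuron (red) libraries, black bars the mean of the plotted values, and dotted lines the level of 3 counts. Only Nefm and Nt5c2 have groups that do not overlap, and Prph lies under the floor in all 6 libraries.

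Nefh encodes the heavy chain, which joins neurofilaments late in maturation. ESC replicates 1 to 3 had 52, 25 and 40 of its counts, and the neuron replicates 30, 15 and 21. The levels overlapped, at 33.2 ± 7.92 CPM in ESC and 31.7 ± 8.57 CPM in neurons (SD, n = 3). The log2 difference of −0.07 had an SE of 0.28 and did not pass (edgeR adjusted p = 0.822), and its sign changed under 5 of 14 alternatives.

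Ina encodes alpha-internexin, an early neurofilament subunit of the brain. It had 42, 62 and 52 counts in the stem cell samples and 40, 55 and 24 in the neuron samples. Neuron replicate 2, at 82.0 CPM, was the highest of the 6 and neuron replicate 3, at 38.5 CPM, lay within the ESC range. The means were 46.2 ± 14.2 CPM in ESC and 57.5 ± 22.2 CPM in neurons (SD, n = 3). On the log2 scale they differed by 0.34 with an SE of 0.26, which did not pass (edgeR adjusted p = 0.231). Without neuron replicate 2 it was −0.06.

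Nt5c2 shares part of the first exon of Ina. Its row went from 163, 187 and 154 counts in the stem cell samples to 534, 423 and 389 in the neuron samples. Every neuron library lay above every ESC library, as for 47.6% of all genes tested. Its level was 148 ± 30.0 CPM in ESC and 650 ± 40.6 CPM in neurons (SD, n = 3), a log2 difference of 2.15 with an SE of 0.13 (edgeR adjusted p = 1.53e-17). Of 4674 tested genes with an opposite-strand exonic overlap, 41.2% were higher and 43.4% lower in neurons. Ina took 20.5%, 24.9% and 25.2% of the counts of the pair in ESC and 6.97%, 11.5% and 5.81% in neurons. This share was examined after its values were seen and was not tested. Counted as 1 unit, Ina and Nt5c2 rose from 194 ± 43.8 to 708 ± 43.8 CPM, a log2 difference of 1.88 with an SE of 0.13 (edgeR adjusted p = 2.89e-15).

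**Figure D3:**
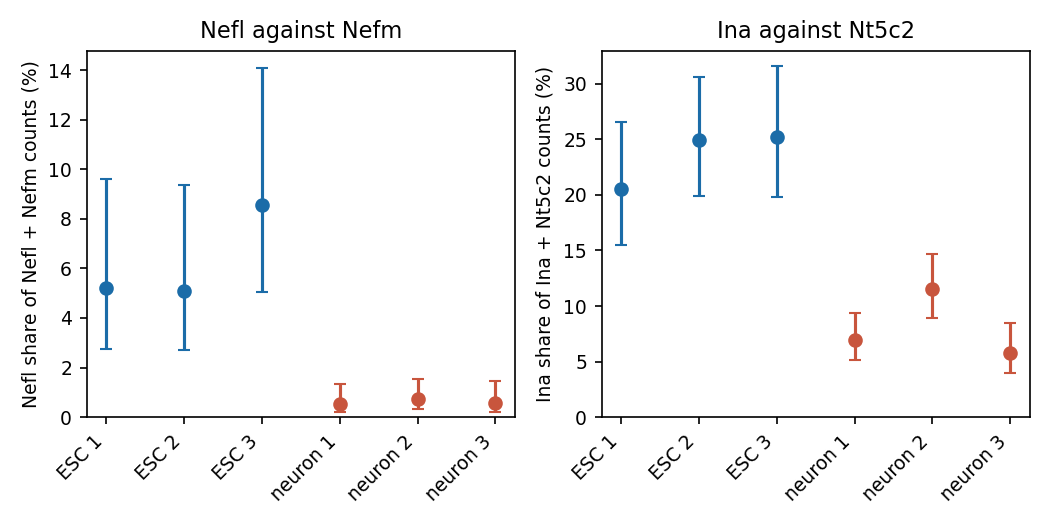
Share of the counts of each overlapping pair that was assigned to Nefl (left) and to Ina (right), in percent, by library; points are libraries (ESC blue, neuron red) and bars the Wilson 95% interval, which covers counting error only. Nefl lies at 5.08% to 8.55% in ESC and 0.516% to 0.712% in neurons, and Ina at 20.5% to 25.2% in ESC and 5.81% to 11.5% in neurons.

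Prph encodes peripherin. The stem cell samples had 2, 0 and 0 of its counts and the neuron samples 0, 1 and 0, under the floor of 3 counts in each of the 6, so no fold is given. Of 8 markers of peripheral and sensory neurons, 7 were at 0 in all 3 neuron libraries, and the eighth, Chat, had 1 count there. Peripherin was not detectable above the floor in these counts. Prph has no gene opposite, so whether depth, the counted strand or absence of the RNA gave these values cannot be told apart.

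Divided by exon length and given per kilobase, the order of the rows was the same in both groups, with Nefm first, then Ina, Nefh, Nefl and Prph. In neurons it ran from 195 ± 20.9 per kilobase for Nefm through 17.8 ± 6.86 for Ina, 7.94 ± 2.14 for Nefh and 2.03 ± 0.562 for Nefl to 0.248 ± 0.430 for Prph, and the ranges of neighbours did not overlap. In ESC the values were 23.7 ± 3.79, 14.3 ± 4.38, 8.31 ± 1.98, 2.69 ± 0.744 and 0.251 ± 0.435 CPM per kilobase, and those of Ina and Nefh overlapped. The order is that of counts as assigned, and with the counted strand unknown it is not an order of the genes' RNA levels. Together the 5 genes held 0.0170% ± 0.0021 of all counts in ESC and 0.148% ± 0.0147 in neurons, and Nefm made up 60.5% ± 3.36 and 92.1% ± 1.19 of them (SD, n = 3).

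A change of scaling moves all genes by nearly the same amount. Scaling to total counts raised the median log2 fold change of all genes by 0.73, to 1.10, and the upper quartile by 0.22. Relative to the median of all genes, Nefm stood at 2.67, Ina at −0.03 and Nefh at −0.44 with TMM, and by construction these distances hardly move with scaling. They do move with the genes and libraries used. With genes averaging 10 counts or more they were 3.41, 0.71 and 0.30, and without both libraries named empty 3.03, 0.34 and 0.38, so Ina and Nefh have no settled side of the median. With total counts, Ina and Nefh were themselves higher in neurons and passed, as 56.6% of all genes tested then did, at 1.07 (edgeR adjusted p = 0.000445) and 0.66 (edgeR adjusted p = 0.0295). Of the calls over all genes, 54.9% were higher in neurons with TMM and 65.5% with total counts.

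**Figure D4:**
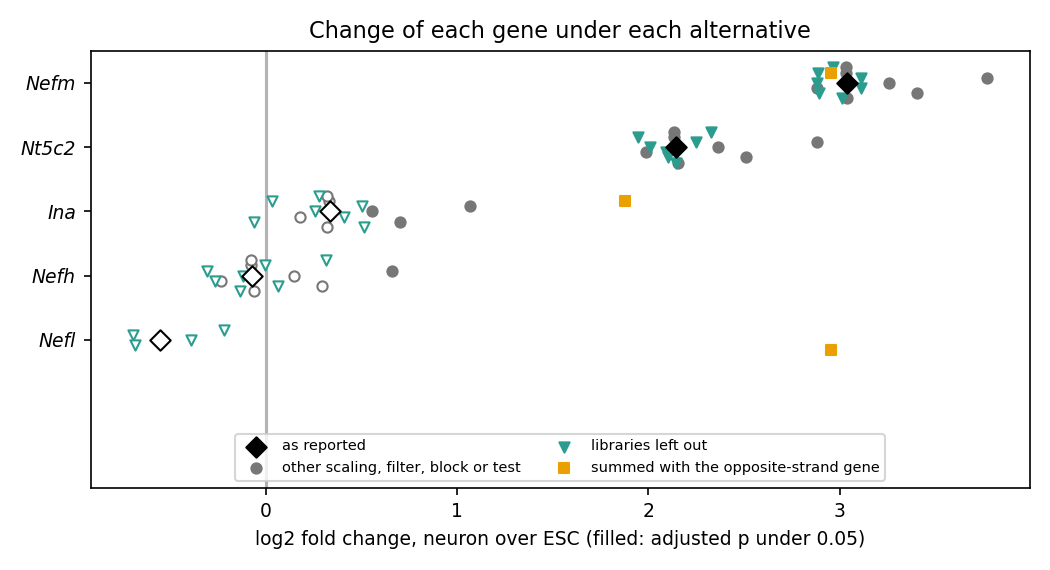
Log2 fold change, neuron over ESC, of Nefm, Nt5c2, Ina, Nefh and Nefl under each alternative; filled symbols have an adjusted p under 0.05, and the value reported for Nefl is that with no filter. Nefm lies between 2.88 and 3.77 throughout, Nefh between −0.31 and 0.66 and Ina between −0.06 and 1.07 on its own, and the squares show Nefl at 2.95 and Ina at 1.88 once summed with the gene opposite.

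The genes with the pattern most like each tested member were taken as the 3 with the smallest Euclidean distance to its log2 CPM over the 6 libraries, among all genes tested. For Nefm these were Btg3, a member of a family of antiproliferative genes (distance 0.50), Tmem150b (0.83) and the adaptor gene Shc4 (0.90). Btg3 had 204, 165 and 165 counts in the stem cell samples against 930, 913 and 749. For Nefh they were Ccdc125 (0.50), the potassium channel gene Kcnn2 (0.50) and Anp32a (0.51). For Ina they were the ubiquitin ligase gene Rnf114 (0.55), Fam216a (0.62) and AC134563.1 (0.71). The likeness is a description of 6 libraries that form 2 groups.

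Other genes of the cytoskeleton were read from 3 lists. Of 15 other intermediate filament genes, 3 had enough counts to be tested. The nuclear lamin gene Lmnb1 (58, 32 and 17 counts in ESC against 5, 1 and 0) and Sync, the gene of a muscle filament-linking protein (189, 99 and 158 against 36, 34 and 42), were lower in neurons. Synm, the gene of synemin, which assembles with other filament proteins, was higher (16, 12 and 7 against 22, 13 and 16). Their log2 fold changes were −3.33 (SE 0.57, edgeR adjusted p = 5.52e-06), −1.22 and 1.28. That of Lmnb1 was −5.08 without neuron replicate 1. Lmnb1 and Synm passed the count filter only through the group where they are high, which largely set their direction. Vimentin (Vim), the filament protein of many dividing and mesenchymal cells, went from 23, 13 and 17 counts to 0 in all 3 neuron samples, at least 3.43-fold lower against a floor of 3 counts per library, and was not tested.

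Of 20 genes for linkers, kinases, transport and turnover of neurofilaments, 8 were tested, with 2 higher, 2 lower and 4 not past the threshold, beside 85.6% called among all genes tested. Gsk3b, a kinase that phosphorylates neurofilament tails, rose from 2, 2 and 3 to 23, 12 and 8 counts, by 3.28 on the log2 scale with an SE of 0.50 (edgeR adjusted p = 2.04e-07). Trim2, a ubiquitin ligase that acts on the light chain, rose from 6, 6 and 2 to 19, 14 and 13 counts (2.43). Ube2k, a ubiquitin-conjugating enzyme gene, was lower at 34, 29 and 29 against 0, 4 and 3 counts (−2.91), and so was the cross-linker gene Macf1 (−0.99, edgeR adjusted p = 0.0209). Macf1 lost its call without neuron replicate 1 (edgeR adjusted p = 0.0617), without neuron replicate 3 (edgeR adjusted p = 0.0650) and in 7 of its 11 alternatives in all. The cross-linker gene Dst (−0.65), the motor genes Kif5b (−0.15) and Dync1h1 (0.14) and the phosphatase gene Ppp2ca (−0.44) did not pass. The median of the 8 was −0.30. Gsk3b, Trim2 and Ube2k passed the count filter only through the group where they are high, which largely set their direction.

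Of 20 genes of the axonal microtubule cytoskeleton, 11 were tested, with 8 higher, 2 lower and 1 not past the threshold, and a median log2 fold change of 1.65. The 10 of 11 called stand beside 85.6% of all genes tested, and the 8 higher beside 47.0%. Map2 stood at 0, 0 and 1 counts against 10, 13 and 13 in neurons, a ratio of 60.6 with a counting interval of 10.2 to 2458. The collapsin response mediator genes Dpysl3 (0, 3 and 1 against 24, 15 and 30 counts) and Dpysl2 (2, 1 and 0 against 7, 10 and 8) rose as well, the latter with a ratio of 14.0 and a counting interval of 4.28 to 72.5. The microtubule-associated protein gene Map1b rose from 11, 5 and 7 to 29, 33 and 35 counts (log2 fold change 2.81). Tubb2b (−2.15) and Stmn2 (−1.73), a tubulin and a regulator of microtubule growth, were lower, and Map1a (−0.18) did not pass. Of the called genes, Map2, Dpysl2, Dpysl3, Map1b, Tubb2b and Stmn2 passed the count filter only through the group where they are high. The filter thus largely set their direction, and the shares called do not bear on it. The list was also chosen with results of these data known, so its direction is not independent evidence.

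**Figure D5:**
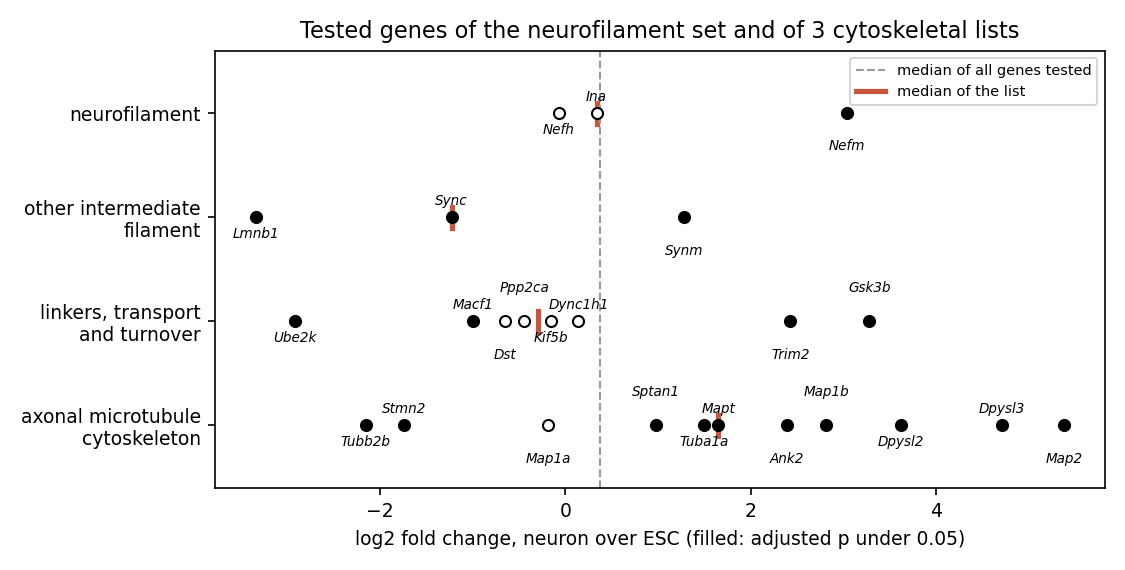
Log2 fold change, neuron over ESC, of each tested gene of the neurofilament set and of 3 cytoskeletal lists; filled points passed an adjusted p of 0.05, red marks are list medians and the dashed line is the median of all 7150 genes tested, 0.37. Nefm lies at 3.04 with Nefh and Ina near 0, and the axonal microtubule list has 8 filled points above 0.

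Exons overlapped an opposite-strand gene in 6 of the 15 other intermediate filament genes, 5 of the 20 linker genes and 4 of the 20 axonal genes, beside 16.8% of all genes and 65.4% of genes tested. Of 7 partners of the intermediate filament genes 4 were tested. Rbbp4, opposite Sync, and Gm36026, opposite the keratin gene Krt8, were lower in neurons, while Gm45102 and Ttc23, opposite Synm, were higher. In the linker list 8 partners were tested, 4 higher and 4 lower, and in the axonal list 4, all higher, including Gm10558 opposite Map2 with 25, 12 and 12 counts against 759, 741 and 579 in neurons. These partners were looked up after the counts had been seen, and they were tested in the same edgeR fit at an adjusted p of 0.05. Their calls stand beside 41.2% higher and 43.4% lower in neurons among the 4674 tested genes with an opposite-strand exonic overlap.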

How the data were processed

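The authors deposited raw counts per gene with exon positions, strand and exon length for 6 libraries. The count columns carry the names of STAR's sorted alignments per the file headers, and cutadapt, STAR, RSEM and GRCm39 are named in the submitters' processing notes. The counting tool and its strand setting are not given in the sources used here. Columns were matched to samples by library name, leaving 0 unmapped. Symbols came from GENCODE M21 by identifier (91.3% of 57010 genes). Sequences came from the M21 transcripts on GRCm38, and no position was converted.

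Groups were compared with edgeR 4.0.16 in R 4.3.3 (filterByExpr with a minimum count of 10, TMM, glmQLFit robust, glmQLFTest, 6 samples, no covariate), with p-values adjusted by Benjamini-Hochberg over all 7150 genes tested and a threshold of 0.05. The standard error is the log2 fold change divided by the square root of F, an approximation. Exonic overlaps were found with bedtools 2.31.1. Tested on simulated data for 7150 genes with 200 changed 4-fold, the edgeR steps recovered 87% of the changed genes. As many genes were raised as lowered there, with the same dispersion for all. In the data 85.6% of genes tested were called, so the simulation does not bear on the choice of scaling. Named genes are the members, their opposite-strand partners, up to 4 called genes per list with the largest change, and 3 nearest genes per tested member. Values of further genes, among them Tubb3, Vim, Tubb2b, Dst, Pou5f1, Hes5 and partners of list genes, were chosen after they were seen. Members, lists and rules were chosen with earlier results of these data known. Alternatives were DESeq2 1.42.0 size factors and Wald test, total counts, upper quartile, other filters, a replicate block, sums with the opposite-strand gene, counts per base and leaving out libraries. One marker gene and some exon sequences are not reported here.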

Additional observations from a re-analysis of the deposited data

How the results depend on the processing

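Nefm passed and was higher in neurons in each of its 15 alternatives (log2 fold change 2.88 to 3.77), and Nt5c2 in each of its 14. Among the neurofilament genes, the number that passed was 3 with total counts, 2 with the upper quartile and 2 with genes averaging 10 counts or more, against 1 otherwise. The log2 fold change of Ina was 1.07 with total counts, 0.55 with the upper quartile, 0.70 with a mean of at least 10 counts and 1.88 summed with Nt5c2, all past 0.05, and −0.059 to 0.51 when 1 replicate was left out. That of Nefh turned to 0.66, 0.15 and 0.29 under the first 3 of these, was −0.31 to 0.063 when 1 replicate was left out, and was 0.31 without both libraries named empty, an alternative chosen after seeing the data. Nefl, tested here with no filter (−0.55), gave 2.95 summed with Nefm and −0.69 to −0.22 in the 3 fits without 1 neuron replicate, and Prph, with a value only where no filter was set, gave −0.31 (edgeR adjusted p = 0.879). The no-filter fit tests more genes and called 11762, with 33 genes of the cytoskeletal lists and 40 marker genes. The fit as reported, with TMM and the count filter, called 17 and 16 of these.

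When 1 replicate was left out, 5430 to 7353 genes passed, with 12 to 22 of the cytoskeletal lists and 11 to 23 markers, and the Nefl share in neurons minus ESC was −6.28 to −4.54 percentage points (exact p = 0.2, two-sided, the smallest possible). Per base of exon length it was −9.24. Among genes not past the threshold, signs turned for Ccdc125 (0.38 with total counts, 0.0099 with a mean of at least 10 counts), Kcnn2 (−0.055 with no filter, −0.15 to 0.27 with 1 replicate left out) and Anp32a (0.69, 0.18 and 0.32 with total counts, upper quartile and a mean of at least 10 counts, 0.44 without both libraries named empty, −0.31 to 0.052 with 1 replicate left out). Of 461 values of other named genes under alternatives, 420 kept direction and side of the threshold. With the replicate block Nefm had 3.04, Nefh −0.06 and Ina 0.32, and 6088 genes passed. The block changed no call among the members. Deviations of same-numbered samples correlated at 0.019, 0.0039 and −0.022, so replicate numbers were not taken as pairs. Apart from the filters, which change how many genes are tested, and the sums, the cause was not tested.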
